A study of Mus musculus with 12 samples.

Results

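*Ccl17*, *Ccl22*, and *Ccl1* are the 3 genes of the panel whose proteins are classical ligands of the chemokine receptors CCR4 and CCR8. They were chosen by name for that role, with earlier results of these data known. The 43 panel genes and 5 house-keeping genes were measured on the NanoString nCounter platform. In it each transcript is hybridized to its own fluorescent barcode, and the barcodes are counted with no amplification step. Each of the 12 samples was a B16.F10 tumor (B16.F10 is a line of mouse melanoma cells) grown under the skin of a female C57BL/6J mouse aged 6 to 8 weeks. At a volume of about 200 cubic mm, each tumor was given 1 local injection of 100 µL, and its RNA was taken 6 hours later. In 4 tumors the injection was PBS (the negative control). A further 4 received free D-PDB, the polymer carrier by itself, in the amount that accompanies the DNA in NanoISD. The last 4 received NanoISD, the same carrier loaded with 2 µg of double-stranded DNA intended to activate the cytosolic DNA sensor cGAS. NanoISD against PBS thus shows the whole formulation, NanoISD against D-PDB what the DNA cargo adds, and D-PDB against PBS the carrier.

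CCR4 is carried by regulatory T cells, type 2 helper T cells, and skin-homing T cells. Its ligands CCL17 and CCL22 are made mainly by dendritic cells and macrophages, and in tumors CCL22 is known for drawing regulatory T cells. CCR8 is found on type 2 helper T cells and on many of the regulatory T cells inside tumors. CCL1, its classical ligand, is made by activated T cells and myeloid cells, and CCL8 is a further CCR8 ligand in the mouse.

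All values are the deposited log2 fold changes, scaled to the house-keeping genes and centered on the PBS-treated tumors, so that 0 is the PBS mean of a gene. Values of different genes are therefore not levels and cannot be ranked as such. The counts behind them were not used here, so the depth is unknown and the number of tumors limits the precision. None of the 3 genes had a lowest value shared by several tumors, as 3 other panel genes did. The panel holds no lineage marker of melanoma cells, T cells, dendritic cells, or macrophages, so the labelled tissue could not be checked against markers. In whole tumors, more cells of a type and more RNA per cell cannot be told apart.

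RefSeq (GRCm38.p6) places *Ccl22* and *Ccl17* on chromosome 8, with 58.0 kb and a single protein-coding gene, *Cx3cl1*, between them. *Ccl1* lies on chromosome 11, where its nearest panel gene is *Ccl8* at 59.9 kb, followed by *Ccl7* at 129 kb and *Ccl2* at 139 kb. The 250 bases before the transcription start of each gene are shown because they are the proximal promoters of 2 neighboring genes that moved together and of 1 gene that followed them less closely. Capitals mark matches to motifs searched on both strands.
Ccl17, chr8:94810203-94810452, plus strand: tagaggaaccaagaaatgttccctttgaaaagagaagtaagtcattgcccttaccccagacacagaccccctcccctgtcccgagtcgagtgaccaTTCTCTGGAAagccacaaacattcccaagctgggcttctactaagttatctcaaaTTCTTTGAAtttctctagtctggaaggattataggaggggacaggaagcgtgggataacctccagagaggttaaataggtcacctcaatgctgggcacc
Ccl22, chr8:94745434-94745683, plus strand: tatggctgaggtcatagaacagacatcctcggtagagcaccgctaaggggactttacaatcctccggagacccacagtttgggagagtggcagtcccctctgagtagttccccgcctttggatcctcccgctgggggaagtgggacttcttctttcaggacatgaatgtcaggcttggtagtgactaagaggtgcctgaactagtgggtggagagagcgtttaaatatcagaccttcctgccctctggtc
Ccl1, chr11:82179813-82180062, minus strand: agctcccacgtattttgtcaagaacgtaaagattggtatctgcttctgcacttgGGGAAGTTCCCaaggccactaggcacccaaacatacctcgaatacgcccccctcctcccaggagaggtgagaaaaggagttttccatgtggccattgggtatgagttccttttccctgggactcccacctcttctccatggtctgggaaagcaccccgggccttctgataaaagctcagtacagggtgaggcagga

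The *Ccl17* window holds TTCTCTGGAA, 154 to 145 bases before the start, a match to the STAT6-type motif (TTC and GAA with 4 bases between), which 5.85% of all 32851 promoter windows of this length hold. It also holds TTCTTTGAA, 99 to 91 bases before the start, a match to the GAS motif of STAT factors (TTC and GAA with 3 bases between), found in 7.02% of windows. The *Ccl1* window holds a match to the kappaB motif of NF-kappaB on each strand, 196 to 187 and 195 to 186 bases before the start. The matches overlap, and 7.25% of windows hold this motif. The *Ccl22* window holds none of these, and the IRF-type motif (GAAA and GAAA with 2 bases between, in 2.98% of windows) was in none of the 3 windows. These matches describe the letters of the windows and do not show binding.

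After NanoISD, *Ccl17* and *Ccl1* rose relative to PBS, each by close to 3-fold on average, and *Ccl22* was 2.30-fold higher without passing the test. After free D-PDB, *Ccl17* and *Ccl22* did not differ from PBS beyond their spread, whereas *Ccl1* was raised in 3 of the 4 tumors, although not by the test. As a result, *Ccl1* differed least between NanoISD and D-PDB. Tests were run with limma over the 43 panel genes of each comparison, with Benjamini-Hochberg adjustment and a threshold of 0.05. NanoISD was higher than PBS in 22 of the 43 genes (51.2%) and lower in 0, so 2 of 3 members past the threshold was close to the share of the whole panel.

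**Figure D1:**
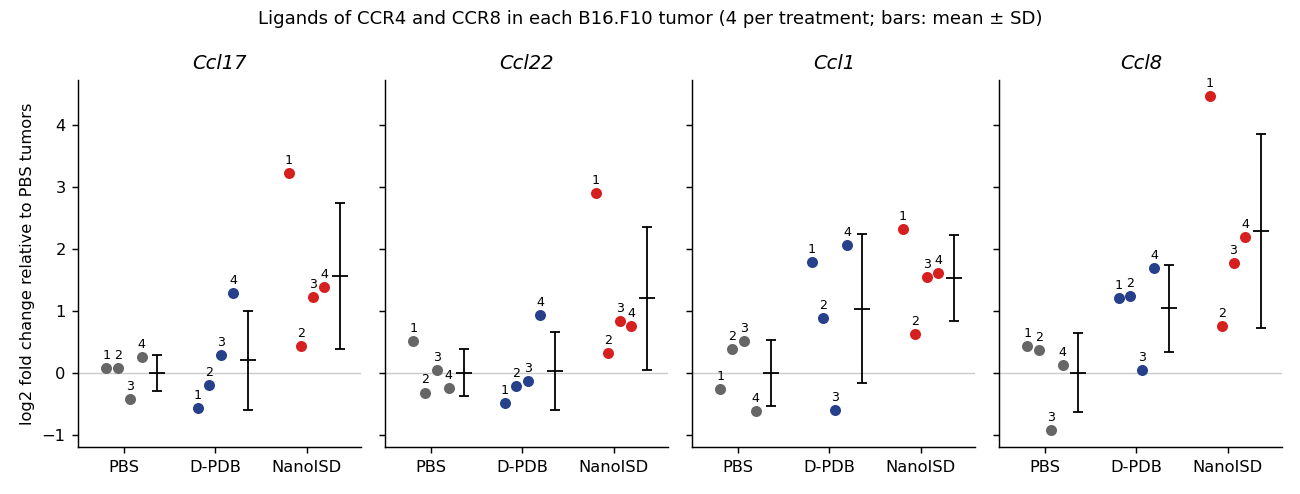
Deposited log2 fold change (y axis) of the CCR4 ligands *Ccl17* and *Ccl22*, the CCR8 ligand *Ccl1*, and the further CCR8 ligand *Ccl8* in each of 12 tumors by treatment (x axis). Points are tumors, labelled with their number, and bars are the mean ± SD of 4 tumors. NanoISD tumor 1 is the highest and NanoISD tumor 2 the lowest NanoISD-treated tumor for all 4 genes. *Ccl1* and *Ccl8* lie above all PBS-treated tumors in D-PDB tumors 1, 2, and 4, as do some panel genes not drawn.

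*Ccl17*, one of the main attractants of CCR4-bearing T cells, had log2 values of 0.08, 0.08, -0.42, and 0.26 in PBS tumors 1, 2, 3, and 4. After D-PDB they were -0.57, -0.20, 0.28, and 1.29, and after NanoISD 3.23, 0.44, 1.22, and 1.38. The lowest NanoISD value, that of tumor 2, thus exceeded the highest PBS value, and NanoISD tumors 2 and 3 lay below D-PDB tumor 4. The group means were 0.00 ± 0.29 (SD, n = 4) for PBS, 0.20 ± 0.81 (SD, n = 4) for D-PDB, and 1.57 ± 1.18 (SD, n = 4) for NanoISD.

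The difference in *Ccl17* between NanoISD and PBS was 1.57 on the log2 scale (standard error 0.56, 95% interval 0.37 to 2.77, limma adjusted p = 0.0322), a fold of 2.96 with an interval of 1.29 to 6.81. Between NanoISD and D-PDB it was 1.37 (95% interval 0.17 to 2.57), which did not pass (limma adjusted p = 0.0764). D-PDB and PBS differed by 0.20 (95% interval -1.0 to 1.4, limma adjusted p = 0.866), so these neighbors in the order of the means did not differ beyond their spread. The call against PBS lay near the threshold and was lost when certain single tumors were left out. Without NanoISD tumor 1 the difference was 1.01 (limma adjusted p = 0.0792), and without PBS tumor 1, 2, or 3 it was 1.59, 1.59, and 1.43 with adjusted p between 0.0548 and 0.0821. Without PBS tumor 1 or 2 the difference itself did not fall, and its standard error was 0.63 in place of 0.56.

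*Ccl22*, the other CCR4 ligand, had values of 0.52, -0.32, 0.04, and -0.24 in PBS tumors 1, 2, 3, and 4. D-PDB tumors had -0.49, -0.21, -0.13, and 0.94, and NanoISD tumors 2.90, 0.32, 0.83, and 0.76. NanoISD tumor 2 lay below PBS tumor 1, so the groups overlapped, with the other 3 NanoISD values above the highest PBS value. The means were 0.00 ± 0.38 (SD, n = 4) for PBS, 0.03 ± 0.63 (SD, n = 4) for D-PDB, and 1.20 ± 1.15 (SD, n = 4) for NanoISD.

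*Ccl22* was higher after NanoISD than after PBS by 1.20 (standard error 0.53, 95% interval 0.06 to 2.34), and than after D-PDB by 1.18 (95% interval 0.04 to 2.31). Neither passed after adjustment (limma adjusted p = 0.0719 and 0.1). Without NanoISD tumor 2 the difference from PBS was 1.5 and passed (limma adjusted p = 0.0281), while without NanoISD tumor 1 it was 0.64 (limma adjusted p = 0.212). Between D-PDB and PBS the difference was 0.03 with an interval of -1.11 to 1.17 (limma adjusted p = 0.959).

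*Ccl1*, the CCR8 ligand, had values of -0.27, 0.38, 0.51, and -0.62 in PBS tumors 1, 2, 3, and 4. After D-PDB they were 1.79, 0.89, -0.61, and 2.06, and after NanoISD 2.32, 0.63, 1.55, and 1.62. Every NanoISD value exceeded the highest PBS value, and so did D-PDB tumors 1, 2, and 4, whereas D-PDB tumor 3 lay next to the lowest PBS-treated tumor. The means were 0.00 ± 0.54 (SD, n = 4) for PBS, 1.03 ± 1.20 (SD, n = 4) for D-PDB, and 1.53 ± 0.69 (SD, n = 4) for NanoISD.

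The difference in *Ccl1* between NanoISD and PBS was 1.53 (standard error 0.56, 95% interval 0.31 to 2.75, limma adjusted p = 0.0362), a fold of 2.89. The call was lost without any of PBS tumors 1, 2, and 4 or NanoISD tumors 1, 3, and 4, with differences between 1.27 and 1.66 and adjusted p between 0.0562 and 0.106. Between D-PDB and PBS the difference was 1.03 (95% interval -0.19 to 2.25, limma adjusted p = 0.689). It was the 5th largest of the 43 genes in this comparison, in which 0 genes (0%) passed and 1 gene had an unadjusted p below 0.05. Without D-PDB tumor 3 it was 1.58 (limma adjusted p = 0.268).

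Between NanoISD and D-PDB, *Ccl1* differed by 0.50 (95% interval -0.72 to 1.72, limma adjusted p = 0.458). This is the smallest of the 3 members' differences in that comparison, and its sign rested on D-PDB tumor 3, without which it was -0.05. Without NanoISD tumor 1 and without D-PDB tumor 4 it was 0.23 and 0.84. None of the 3 members passed against D-PDB, where 11 of 43 genes did (25.6%). With D-PDB tumor 4 or NanoISD tumor 2 left out, *Ccl17* and *Ccl22* did pass against D-PDB, with differences of 1.73 and 1.74 for *Ccl17* and 1.48 and 1.47 for *Ccl22* (limma adjusted p between 0.0213 and 0.0476). The 3 comparisons share their tumors pairwise and are not independent. Whether the members differ from each other in their response was not tested.

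**Figure D2:**
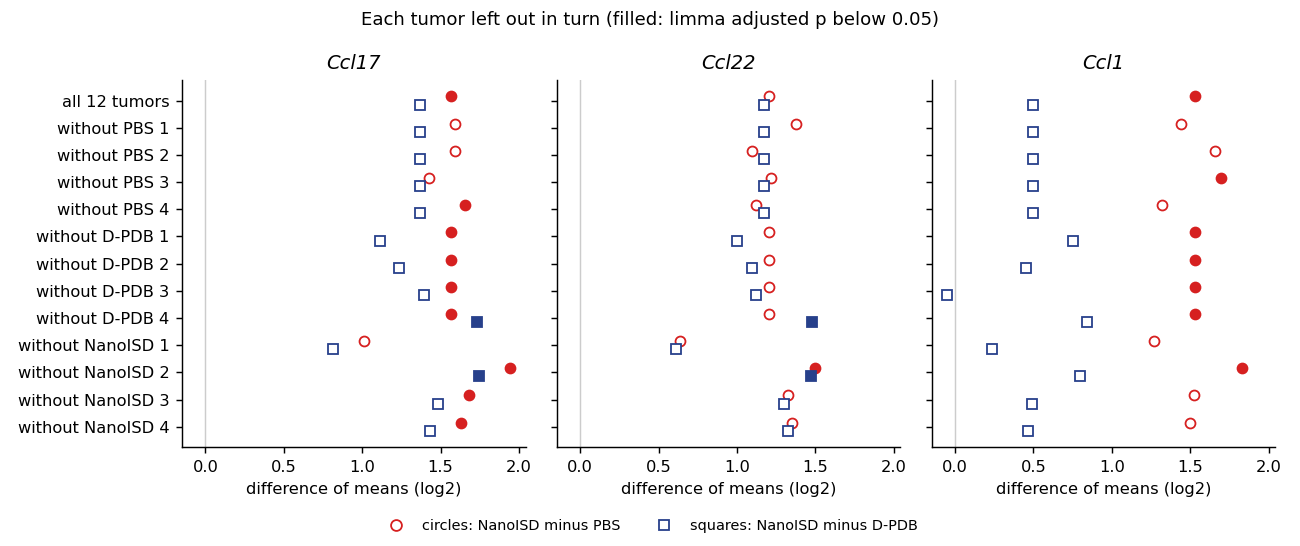
Difference of means on the log2 scale (x axis) for NanoISD minus PBS (circles) and NanoISD minus D-PDB (squares) with all 12 tumors and with each tumor left out in turn (y axis). Filled symbols passed a limma adjusted p of 0.05. Leaving out NanoISD tumor 1 lowers *Ccl17* to 1.01 and *Ccl22* to 0.64 against PBS, and leaving out D-PDB tumor 3 moves *Ccl1* to -0.05 against D-PDB.

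The 4 NanoISD-treated tumors did not respond alike, and the 3 members shared their order at both ends. NanoISD tumor 1 was the highest for each of them, and its mean over the 43 genes was also the highest, 2.45. NanoISD tumor 2 was the lowest for each, with a panel mean of 0.58. Among the D-PDB-treated tumors, tumor 4 was the highest for each member, with a panel mean of 0.86 against at most 0.34 in the others. What sets these tumors apart was not tested.

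Complete separation of the 4 NanoISD-treated from the 4 PBS-treated tumors, seen for *Ccl17* and *Ccl1*, was found in 18 of the 43 genes (41.9%). Against D-PDB, 8 genes separated (18.6%) and none of the members did. Between D-PDB and PBS 0 genes separated upward (0%), and *Il2* was the 1 gene whose D-PDB values all lay below those of PBS. By the size of their difference from PBS the members stood in the middle of the panel. *Ccl17* was 19th, *Ccl1* 20th, and *Ccl22* 22nd of the 43 genes, the last being the median gene itself. Measured within each NanoISD-treated tumor, *Ccl17* lay 0.91, 0.07, -0.16, and 0.30 from the median of the 43 genes in tumors 1, 2, 3, and 4. *Ccl22* lay between -0.55 and 0.58 from it, and *Ccl1* between 0.00 and 0.54. When each tumor was scaled to this median in place of the house-keeping genes, which moved the median difference of the panel from 1.20 to -0.10, the members differed from PBS by 0.27, -0.10, and 0.23 for *Ccl17*, *Ccl22*, and *Ccl1*, and none passed. Their differences from D-PDB were then 0.32, 0.13, and -0.55. The rises of *Ccl17* and *Ccl1* given above are relative to the house-keeping genes.

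*Ccl17* and *Ccl22* followed each other from tumor to tumor, and *Ccl1* followed them less closely. Pearson's r between *Ccl17* and *Ccl22* was 0.91 over the deviations of the 12 tumors from their treatment means, and 0.94 over the values themselves. Without NanoISD tumor 1, where both genes were highest, these were 0.77 and 0.84 over 11 tumors. Of the 42 other panel genes *Ccl22* was the one most like *Ccl17*, but *Ccl17* was only the 4th in likeness to *Ccl22*. *Ccl9*, *Kitl*, and *Ccl2* came before it (r = 0.95 for each), so the closeness was not particular to the pair. *Ccl1* correlated with *Ccl17* at 0.57 and with *Ccl22* at 0.59, or 0.37 and 0.46 over the deviations, and these were the 25th and 24th of the 42 genes in likeness to it. All of these points share the tumors, the RNA samples, and the scaling, and the coefficients are a description.

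**Figure D3:**
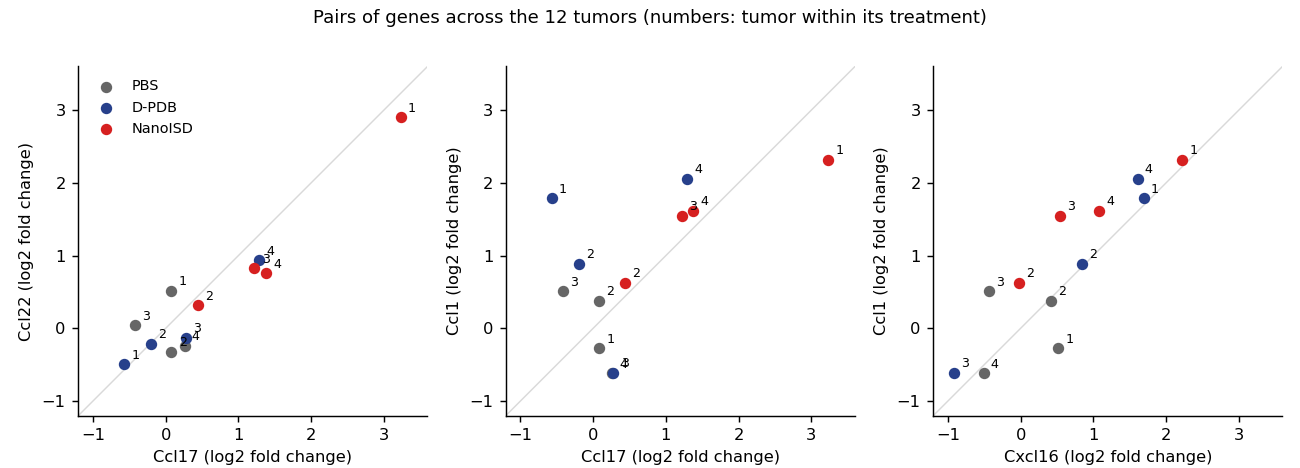
Log2 fold changes of 2 genes plotted against each other in the 12 tumors, colored by treatment and labelled with the tumor number. The grey line marks equal values. *Ccl17* and *Ccl22* run together, D-PDB tumor 1 is low for *Ccl17* (-0.57) and high for *Ccl1* (1.79), and *Ccl1* runs with *Cxcl16*.

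D-PDB tumor 1 shows the contrast most clearly. It had the lowest *Ccl17* and the lowest *Ccl22* value of all 12 tumors and the third highest *Ccl1* value, so that its *Ccl1* exceeded its *Ccl17* by 2.36 on the log2 scale, against at most 1.09 in the other tumors. In D-PDB tumor 3 the order was turned, with *Ccl1* 0.89 below *Ccl17* (a difference of -0.89). The gap between *Ccl17* and *Ccl22* was narrower. It ran from 0.12 to 0.62 in the NanoISD-treated tumors, where *Ccl17* was the higher in 4 of 4, from -0.08 to 0.41 in the D-PDB-treated tumors, and from -0.46 to 0.50 in the PBS-treated tumors, each relative to the PBS mean of the gene.

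The 3 panel genes most like *Ccl17* were *Ccl22*, *Cxcl1*, a neutrophil attractant (r = 0.92), and *Kitl*, which encodes stem cell factor (r = 0.92). For *Ccl22* they were *Ccl9*, a chemokine of myeloid cells (r = 0.95), *Kitl* (r = 0.95), and *Ccl2*, the main attractant of monocytes (r = 0.95). Over the deviations from the treatment means these 5 values lay between 0.85 and 0.95, and with NanoISD tumor 1 also left out between 0.58 and 0.85. *Ccl1* had other neighbors. They were *Cxcl16*, the ligand of CXCR6 (r = 0.88), *Fasl*, the death ligand of cytotoxic lymphocytes (r = 0.82), and *Ccl5*, a chemokine of effector T cells (r = 0.80), with 0.86, 0.78, and 0.68 over the deviations. *Fasl* was not particular to *Ccl1*, as its r was 0.82 with *Ccl22* and 0.80 with *Ccl17*. *Cxcl16* and *Ccl5* were less like *Ccl17* and *Ccl22*, with r between 0.54 and 0.66.

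The genes most like *Ccl1* were chosen over all 12 tumors, so a D-PDB mean that resembles that of *Ccl1* follows in part from the choice, and their values are given as a description. The mean after D-PDB exceeded that after PBS in 30 of 43 genes. *Cxcl16* was higher by 0.81 after D-PDB than after PBS (95% interval -0.51 to 2.12) and by 0.96 after NanoISD (limma adjusted p = 0.188), so that NanoISD and D-PDB differed by 0.15. *Ccl5* was higher by 0.73 after D-PDB (95% interval -0.53 to 1.99) and by 2.01 after NanoISD, which passed (limma adjusted p = 0.0155). *Fasl* was higher by 0.31 after D-PDB and by 1.19 after NanoISD (limma adjusted p = 0.0224). The call of *Fasl* was lost without PBS tumor 1, PBS tumor 2, or NanoISD tumor 1 (differences of 1.11, 1.11, and 0.89, limma adjusted p between 0.0557 and 0.0578). Under scaling to the panel median neither *Fasl* nor *Ccl5* passed.

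*Ccl8*, the further CCR8 ligand of the mouse and the panel gene nearest to *Ccl1* on chromosome 11, had values of 0.44, 0.37, -0.93, and 0.12 in the PBS-treated tumors, 1.21, 1.24, 0.04, and 1.69 in the D-PDB-treated tumors, and 4.47, 0.75, 1.77, and 2.19 in the NanoISD-treated tumors. As for *Ccl1*, D-PDB tumors 1, 2, and 4 lay above all PBS-treated tumors and D-PDB tumor 3 was the lowest of its group. The same pattern held for *Ccl3*, *Ccl5*, *Csf1*, *Cxcl12*, and *Cxcl16*, so it was not particular to the CCR8 ligands. *Ccl5*, for example, had 1.16, 1.32, -0.47, and 0.91 after D-PDB and at most 0.18 after PBS. For *Ccl8* the difference of D-PDB from PBS was 1.05 (95% interval -0.40 to 2.49, limma adjusted p = 0.813), close to the 1.03 of *Ccl1*. The difference of NanoISD from PBS was 2.30 (95% interval 0.85 to 3.74, limma adjusted p = 0.0155). Over the 12 tumors *Ccl8* correlated with *Ccl1* at 0.77, and with *Ccl17* and *Ccl22* at 0.87 and 0.84.

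The panel holds 9 other CC chemokines, among them *Ccl8*, the further CCR8 ligand of the mouse. After NanoISD, 7 of the 9 passed against PBS, all higher, beside 22 of the 43 panel genes (51.2%). Their median difference was 2.05 against 1.20 over the 43 genes. The 2 that did not pass were *Ccl20* and *Ccl28*, chemokines of mucosal surfaces. With all tumors in the fit, the differences of *Ccl17* (1.57), *Ccl1* (1.53), and *Ccl22* (1.20) were each smaller than those of the 7, which began at 1.90 (*Ccl2*). Without NanoISD tumor 1, *Ccl1* was at 1.27, above *Ccl2* (1.17) and *Ccl9* (1.19). With each tumor left out in turn, the count against PBS ran from 5 to 8, and it was 5 with only the 2 compared treatments. Against D-PDB 2 of the 9 passed (*Ccl3* and *Ccl4*), beside 11 of the 43 panel genes (25.6%), and between D-PDB and PBS 0 did. The count against D-PDB rested on single tumors and was 6 without NanoISD tumor 2 and 1 without D-PDB tumor 3.

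**Figure D4:**
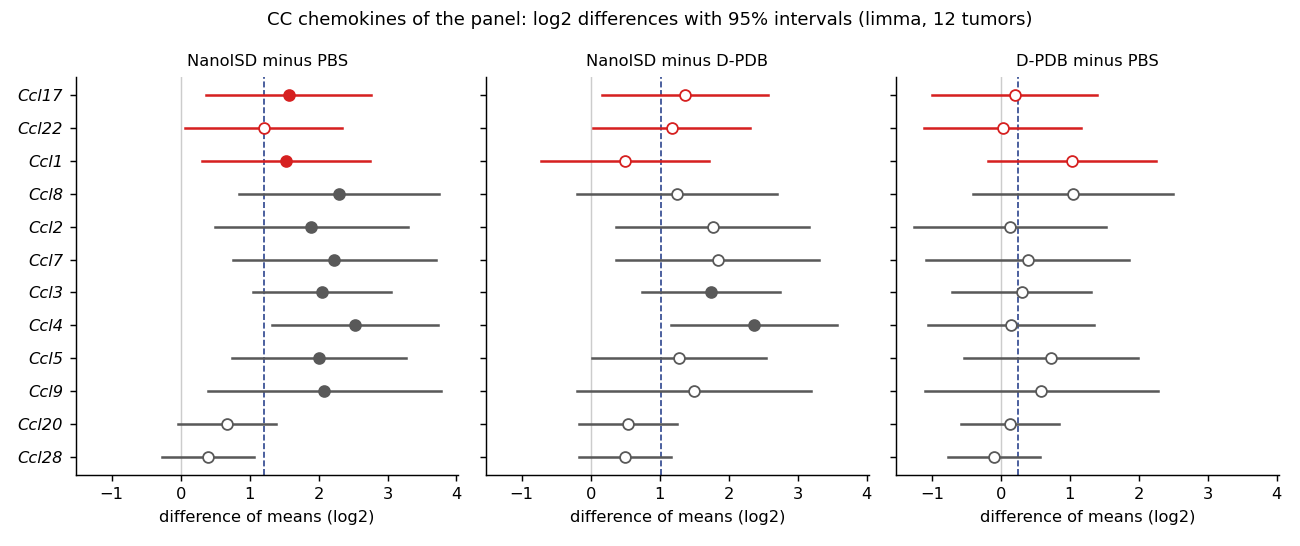
Difference of means on the log2 scale with its 95% interval (x axis) for the 12 CC chemokines of the panel (y axis) in 3 comparisons. The members *Ccl17*, *Ccl22*, and *Ccl1* are red, filled symbols passed a limma adjusted p of 0.05, and the dashed line is the median of the 43 panel genes. Against PBS the members lie near the median (1.20), to the left of the 7 other CC chemokines that passed.

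Of the 6 chemokines that draw type 1 T cells, which are the CXCR3 ligands *Cxcl9*, *Cxcl10*, and *Cxcl11* and the CC chemokines *Ccl3*, *Ccl4*, and *Ccl5*, 5 passed against PBS and 4 against D-PDB, all higher. Over the panel 22 of 43 genes (51.2%) and 11 of 43 (25.6%) did. *Ccl3*, *Ccl4*, and *Ccl5* are also among the other CC chemokines above, so the lists overlap. *Cxcl9* was the exception in both, and *Ccl5* against D-PDB. Their median differences were 2.03 and 1.92, compared with 1.20 and 1.01 over the panel. *Cxcl10*, which had the largest difference of the panel in this comparison, differed from D-PDB by 3.46 (limma adjusted p = 0.00252), beside 1.37, 1.18, and 0.50 for *Ccl17*, *Ccl22*, and *Ccl1*. The 4 that passed against D-PDB lay above all 3 members, and the rest of the list did not. *Cxcl9* differed from D-PDB by 1.04, below *Ccl17* and *Ccl22*, and *Ccl5* by 1.28, below *Ccl17*. From PBS, *Cxcl9* differed by 1.14, less than each of the 3 members. Differences between genes were not tested, and this list was chosen with earlier results of these data known. With only the NanoISD- and D-PDB-treated tumors in the fit, 1 of the 6 passed against D-PDB. Under scaling to the panel median, 2 of the 6 (*Ccl4* and *Cxcl10*) passed against PBS, and the same 2 against D-PDB.

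Among 4 cytokines of T cell regulation and growth, *Il10*, the anti-inflammatory cytokine that regulatory T cells and macrophages release, rose against both PBS and D-PDB, by 2.07 and 1.76 (limma adjusted p = 0.00476 and 0.0157). *Tgfb1*, *Il2*, and *Il7* did not pass, with differences of 0.25, -0.18, and -0.04 from PBS. The call of *Il10* against D-PDB was lost with only these 2 treatments in the fit and without D-PDB tumor 1 or 3. Under scaling to the panel median it was lost against both PBS and D-PDB, and *Tgfb1*, *Il2*, and *Il7* passed as lower than PBS and *Tgfb1* as lower than D-PDB.

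Panel genes that mark other cells in a tumor did not move in 1 direction within their lists. Of the platelet genes *Pf4* and *Ppbp*, 0 of 2 passed against PBS, with differences of 1.02 and -0.035 after NanoISD. Their mean ran from -0.27 to 2.05 in the NanoISD-treated tumors and from -0.33 to 0.28 in the PBS-treated tumors, with the 2.05 in NanoISD tumor 1. Of the activated lymphocyte genes *Lta*, *Fasl*, *Xcl1*, *Il2*, and *Il3*, 1 of 5 passed (*Fasl*), beside 22 of the 43 panel genes (51.2%). In that order their differences from PBS were 0.12, 1.19, 0.31, -0.18, and -0.375. Their mean ran from -0.06 to 0.62 after NanoISD and from -0.23 to 0.16 after PBS. The part of these cells in the values of the members was not tested.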

How the data were processed

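Tumor RNA (100 ng) was hybridized and read on a NanoString nCounter MAX system. The authors processed the counts in nSolver (version and background threshold not given in the sources used here) and deposited log2 fold changes with 2 decimals. Over the 48 genes the PBS means were within 0.0025 of 0. Over the 12 tumors the house-keeping means were within 0.002 of 0, which follows from the scaling. Single house-keeping genes did shift after NanoISD. *Gapdh* had a mean of -0.32 and *Rpl19* of 0.19, with its lowest NanoISD value (0.09) above its highest PBS value (0.03). Scaled without *Gapdh*, NanoISD differed from PBS by 1.49 for *Ccl17* and 1.45 for *Ccl1*. The values were used as deposited, with groups and numbers from the tumor titles. No hybridization batch is named.

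The 43 panel genes were fitted with lmFit and eBayes (limma 3.58.1, R 4.3.3) on all 12 tumors, the 3 treatments in 1 fit, with Benjamini-Hochberg adjustment over the 43 genes of each comparison. Nothing in the titles says how tumors were assigned, so the p-values cover these tumors only. They set each difference of means against the spread between tumors, pooled over the 3 treatments and moderated over the 43 genes. The spread was unequal, as the SD of *Ccl17* was 0.29 after PBS and 1.18 after NanoISD. The fit was tested on simulated data in which 10 of the 43 genes were changed. A change of 1 on the log2 scale was recovered in 1.25 to 1.5 of the 10 genes on average, and a change of 2 in 7.37 to 7.74. Each simulated gene had the same spread in all 3 treatments, unlike the tumors, so the simulation does not cover unequal spread. Alternatives were other scalings, each tumor left out, only the 2 compared treatments, robust eBayes, weighted arrays, the tumor number as a block, and a panel without *Ccl20*, *Csf3*, and *Cxcl17*, whose lowest value is shared by 5 or more tumors.

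Genes were named as the 3 members, the 3 likest panel genes of each by Pearson's r over the 12 tumors, and the lists of CC chemokines, type 1 chemokines, and T cell cytokines. The members and lists were chosen with earlier results of these data known. Promoters were the RefSeq windows of GRCm38.p6, cut to the bases before the start, and all 3 members were matched by symbol. Other steps ran in Python 3.11.15 with pandas 2.3.3, and plots were drawn with matplotlib 3.10.9.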

Additional observations from a re-analysis of the deposited data

Results flagged for a closer look

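*Kitl*, named because it is among the genes most like *Ccl17* and *Ccl22*, had a single high tumor after NanoISD. NanoISD tumor 1 lay at 2.13 and the other NanoISD-treated tumors between 0.22 and 0.51, a gap to the nearest tumor of 0.848 of the range of the 4 tumors. The members and named genes gave 36 groups of 4 tumors, of which 1 passed Dixon's limit, and 1.8 would be expected at 5% for independent groups. These groups share tumors, and many of the genes were chosen for their likeness over the same tumors. The 1.8 is therefore no fair reference for them. None of the 9 groups of *Ccl17*, *Ccl22*, and *Ccl1* passed it. The nearest was *Ccl22* after NanoISD, with a gap of 0.802 above the other tumors, also in NanoISD tumor 1.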

How the results depend on the processing

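The depth is unknown, and 4 tumors per treatment leave wide intervals. *Ccl17* against PBS passed in 18 of 23 alternatives, *Ccl1* in 15, and *Ccl22* in 1. Against D-PDB, *Ccl17* and *Ccl22* passed in 2 each and *Ccl1* in 0.

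With each tumor left out in turn, the differences from PBS after NanoISD ran from 1.01 to 1.94 for *Ccl17*, 0.64 to 1.5 for *Ccl22*, and 1.27 to 1.83 for *Ccl1*, and those from D-PDB from 0.81 to 1.74, 0.61 to 1.48, and -0.05 to 0.84. For D-PDB against PBS they ran from -0.16 to 0.46 for *Ccl17* and from -0.28 to 0.20 for *Ccl22*, both lowest without D-PDB tumor 4, as were *Ccl2* (-0.11 to 0.33) and *Cxcl1* (-0.0325 to 0.43). *Cxcl16* in NanoISD against D-PDB ran from -0.425 to 0.475. Against D-PDB, the count of panel genes that passed ran from 5 to 20 of 43, that of the other CC chemokines from 1 to 6, and that of the T cell cytokines from 0 to 1.

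Scaling to the panel median lowered NanoISD against PBS to 0.27 for *Ccl17*, -0.10 for *Ccl22*, 0.23 for *Ccl1*, -0.34 for *Cxcl16*, -0.11 for *Fasl*, and -0.48 for *Kitl*. NanoISD against D-PDB became 0.32 for *Ccl17*, 0.13 for *Ccl22*, -0.55 for *Ccl1*, -0.8975 for *Cxcl16*, -0.17 for *Fasl*, and -0.48 for *Kitl*. D-PDB against PBS became -0.0525 for *Ccl17*, -0.23 for *Ccl22*, -0.12 for *Ccl2*, and -0.0075 for *Kitl*. This scaling takes the median change of the panel out of every gene, so that 11 genes passed against PBS, 4 higher and 7 lower, in place of 22 higher and 0 lower, and 4 against D-PDB, 3 higher and 1 lower, in place of 11 higher. The other CC chemokines then had 1 gene past the threshold in each of these comparisons, the type 1 chemokines 2 in each, and the T cell cytokines 3 against PBS and 1 against D-PDB, all lower.

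The cause of these and the following changes was not tested. With only the compared treatments, 2 panel genes passed against D-PDB, with 0 other CC chemokines, 1 type 1 chemokine, and 0 T cell cytokines. Scaling without *Hdac3* or *Rpl19* gave 4 other CC chemokines against D-PDB. *Ccl22* in D-PDB against PBS was -0.0088 when scaled without *Gapdh* and -0.0181 with array weights. Whether the replicate numbers pair the tumors was not settled. Same-numbered tumors deviated together with r above 0.1 in 3 of 12 pairs, within a range of -0.52 to 0.47. Tumors with different numbers were not compared in this way, so these values have no reference. With the number as a replicate block, *Ccl1* against PBS stayed at 1.53 and no longer passed (limma adjusted p = 0.0563), and no other member changed its call.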
